A study of Rattus norvegicus with 8 samples.

Results

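Fabp4+ Spp1+ macrophages of the rat spinal cord were picked out of single-cell RNA libraries by their transcript counts. A cell entered when at most 10% of its UMIs (unique molecular identifiers, each standing for 1 captured RNA molecule) came from the 13 mitochondrial genes and it had at least 1000 UMIs in all. It then needed at least 3 UMIs of Tyrobp, a signalling adaptor of myeloid cells, at least 2 of Fabp4 and at least 20 of Spp1, Fabp5 and Gpnmb together. Cells with more than 1 UMI of the division genes Mki67 and Top2a, or with 5 or more of the chemokine Cxcl1, were left out. The rule kept 6834 cells of 68658 deposited (9.95%), of 57296 that passed the quality limits (11.9%) and of 42475 with at least 3 Tyrobp UMIs. Fabp4, Spp1, Fabp5, Gpnmb, Tyrobp, Mki67, Top2a and Cxcl1 chose the cells, so their levels are given as a description.

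The tissue was 10 mm of spinal cord from female Wistar rats of 8 weeks, taken 7 days after surgery. Contusion groups received a 10 g weight dropped onto the cord at the ninth thoracic segment from 12.5 mm (mild), 25 mm (moderate) or 50 mm (severe), and the sham group had the bone of the vertebral arch removed with no blow. The labels name no altered allele or drug, and all 4 groups shared the surgery up to the blow. Per the supplementary methods, the rats were anaesthetised with pentobarbital and were given daily buprenorphine and cefazolin after surgery. Each group held 2 libraries, made with droplet-based 3' capture of dissociated cells. The labels name them as separate samples without saying how many rats each held, so p-values measure the spread between these libraries, which may be partly technical.

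Fabp4 and Fabp5 encode small cytosolic proteins that carry fatty acids, and macrophages raise them when they load lipid. Spp1 encodes osteopontin, a secreted matrix phosphoprotein, Gpnmb a lysosome-associated membrane glycoprotein, and Apoc1 and Apoe apolipoproteins that take up exported lipid. After cord contusion, blood-borne macrophages enter the lesion and engulf myelin, whose cholesterol they must esterify into droplets, break down in lysosomes or export through ABC transporters. Lipid itself was not measured in these libraries, so the cells are called here by the genes that chose them.

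The 2 sham libraries held 30 and 36 of these cells, the mild 1258 and 1303, the moderate 2150 and 1699 and the severe 158 and 200. Per library, 31482153 to 131045446 UMIs were deposited over 3069 to 12674 cells. The median member held 10688 to 23986 UMIs, with the highest medians in severe (20748 and 23986). Summed over its members, a library gave 556797 to 24998200 UMIs. Mitochondrial genes made up a median of 2.09% to 5.71% of a member's UMIs, and 2.09% to 2.29% in sham 1 and the severe libraries. Between pairs of libraries 5 to 40 cell barcodes were shared (28 pairs, 571 shared barcodes in all), and summed over pairs 86 members had a barcode found in the other library, with 2 barcodes belonging to members in both. Scrublet, which scores likely doublets, placed 502 members (7.35%) among the 7.7% highest-scoring cells of their libraries, and 23.3% of the members of sham 1.

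Sham 1 stood apart before any comparison. All 30 of its members held at least 5 UMIs of S100a8 or S100a9, calcium-binding proteins abundant in neutrophils, and S100a9 stood there at 4288 CPM against 0 to 146 in the other libraries. CPM here is the UMIs of a gene per 1000000 UMIs, summed over the cells of 1 kind in 1 library. The summed neutrophil list (10 genes, S100a9 the most abundant) was 6667 CPM in these members, against 44.2 to 278 in the other libraries. It was 10684 CPM in Fabp4-negative C1q cells of sham 1 and 2087 CPM in its cells without a Tyrobp UMI. Sham 1 members were also low in Apoc1 (18.6 CPM) and Gpnmb (905 CPM) and high in the fibroblast gene Dcn (1296 CPM, against 1.54 to 52.1). The part of other cells' RNA in the sham values was not tested, and with 30 and 36 cells every sham level rests on few cells.

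Members took a far larger share of Tyrobp cells in mild and moderate contusion than in sham or severe cord. Of cells with at least 3 Tyrobp UMIs they made up 0.494% (95% Wilson interval 0.346 to 0.704) and 1.5% (1.08 to 2.07) in sham, 20.9% (19.9 to 22.0) and 21.9% (20.9 to 23.0) in mild, 23.8% (22.9 to 24.7) and 34.5% (33.2 to 35.8) in moderate and 5.82% (5.0 to 6.76) and 3.73% (3.25 to 4.27) in severe. The intervals cover counting error only. Every injured library lay above both sham libraries, and both severe libraries lay below all 4 mild and moderate ones. The injured mean was 18.4% ± 11.7 (SD, n = 6) against 0.995% ± 0.709 (n = 2) in sham, a difference of 17.5 percentage points with p = 0.0714 in a two-sided exact permutation test, taken as 2 times the smaller tail, which is the smallest p that 6 against 2 libraries then allow. Of all cells that passed the quality limits, the group means were 0.843% in sham, 16.1% in mild, 22.9% in moderate and 3.21% in severe. Over the 8 libraries no relation of the share to the drop height was shown (Spearman rho 0.39, permutation p = 0.361, adjusted over the 2 relations 0.722; Pearson r 0.00318, permutation p = 0.994, adjusted 0.994). Without the 2 severe libraries, the farthest from the median height, rho was 0.956 and r 0.936 (n = 6).

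**Figure D1:**
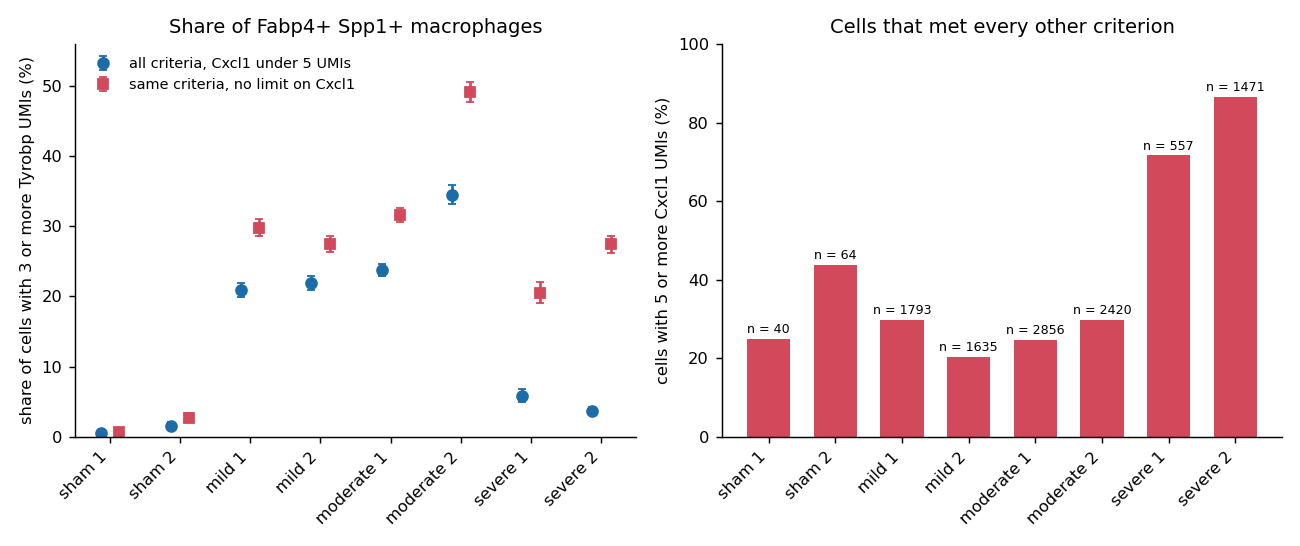
Members as a percentage of cells with at least 3 Tyrobp UMIs, per library, with the limit on Cxcl1 and without it (left, points with 95% Wilson intervals), and the percentage of cells meeting every other criterion that held 5 or more Cxcl1 UMIs (right, bars with the number of cells). With the limit the severe libraries sit at 5.82% and 3.73%, below the 20.9% to 34.5% of the mild and moderate libraries, and without it at 20.5% and 27.4%.

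The low severe share depended on the limit on Cxcl1. Cxcl1 encodes a chemokine that draws neutrophils through Cxcr2, and cells with 5 or more of its UMIs had been set apart. Of the cells that met every other criterion, 25.0% and 43.8% reached 5 Cxcl1 UMIs in sham, 29.8% and 20.3% in mild, 24.7% and 29.8% in moderate and 71.6% and 86.4% in severe. The median such cell held 34 and 136 Cxcl1 UMIs in severe and 0 to 2.5 elsewhere. Without the limit the share of Tyrobp cells became 0.659% and 2.66% in sham, 29.8% and 27.5% in mild, 31.6% and 49.1% in moderate and 20.5% and 27.4% in severe. The severe mean then was 23.97% ± 4.89 (SD, n = 2), and severe 2 lay next to mild 2. Pearson r of the share with drop height became 0.452 (permutation p = 0.269, adjusted 0.361), while Spearman rho stayed at 0.39. The median cell above the limit held 17466 and 22051 UMIs in severe, against 20748 and 23986 in members, and 11940 and 21994 in sham, against 17554 and 14590.

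Cells above the Cxcl1 limit also held more Cxcl2 and Il1b. Cxcl2, a sister chemokine of Cxcl1, stood in members at 861 and 159.8 CPM with sham surgery, 294 and 113 after mild, 274 and 132 after moderate and 589.6 and 145 after severe contusion. Above the limit it was 828 CPM in sham 2, 1475 and 1328 in mild, 1169.7 and 1443 in moderate and 4532 and 5178 in severe, higher than in the members of each of these 7 libraries. Sham 1 held 10 such cells and was not summed. Il1b, an inflammatory cytokine, was 152 CPM above the limit in sham 2, 192 and 248 in mild, 137 and 404 in moderate and 1173 and 2200.4 in severe, against 18.3 to 98.3 CPM in members of these libraries. Apoe, at 23785 to 83131 CPM above the limit, and Pla2g7, at 329 to 674, lay nearer to the members' own values. Gpnmb was at 3211 to 5624 CPM there, but these cells also had to meet the rule's sum with Gpnmb, so its level is a description.

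Sequence just before the start of Cxcl1 is shown because this gene set the limit, and that of Cxcl2 because Cxcl2 was higher above it. That of Gpnmb is shown because it held a match of the other word searched. Each stretch is 80 bases of RefSeq sequence (build GRCr8), read 5' to 3' on the gene's strand, with matches in capitals. Searched on both strands were an NF-kB type word (GGG, any 2 bases, then TTTCC) and an AP-1 type word (TGANTCA, where N is any base). NF-kB is the main inducer of inflammatory chemokines, and AP-1 words resemble sites of Fos, Jun and some Maf factors.
Cxcl1, chr14:17479362-17479441, minus strand: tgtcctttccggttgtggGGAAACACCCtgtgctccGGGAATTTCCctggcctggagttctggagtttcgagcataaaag
Cxcl2, chr14:17467276-17467355, minus strand: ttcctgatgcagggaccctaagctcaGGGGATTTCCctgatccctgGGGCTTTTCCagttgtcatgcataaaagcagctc
Gpnmb, chr4:79340998-79341077, plus strand: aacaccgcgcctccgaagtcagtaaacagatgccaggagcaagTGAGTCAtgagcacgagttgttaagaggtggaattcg
Cxcl1 and Cxcl2 each held 2 matches of the NF-kB type word in their promoter windows (250 bases before to 50 after the start), a word found in 512 of 33469 rat promoters (1.53%). Gpnmb held 1 AP-1 type match, a word found in 2453 promoters (7.33%). The windows of Spp1, Apoc1 and Apoe held neither word, and Fabp4, Fabp5 and Tyrobp had no entry in the table of promoters. A match is a description of the letters and was not tested as a site.

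The 5 genes that name the cells were present in every library, with sham 1 the lowest for Fabp5, Gpnmb and Apoc1. Fabp4 stood at 969 and 745 CPM with sham surgery, 1639.7 and 1522 after mild, 1447 and 2262 after moderate and 1492 and 1291 after severe contusion. Fabp5 stood at 1130 and 6302 CPM with sham surgery, 7069 and 7480.4 after mild, 5349 and 4434 after moderate and 6459 and 7856 after severe contusion. Spp1 reached 15678 and 9639 CPM with sham surgery, 23134 and 23215 after mild, 26655 and 28843 after moderate and 43107 and 29404 after severe contusion, and severe 1 was its highest library. Gpnmb lay at 905 and 4646 CPM with sham surgery, 5938 and 7313 after mild, 5599 and 5026 after moderate and 5326 and 4505 after severe contusion. Since a cell enters by these counts, each cell's UMIs were also split at random, choosing cells with one part by a rule with lower thresholds (Tyrobp 2, Fabp4 1, the sum of 3 genes 10 and Cxcl1 under 3 UMIs, 34 to 2516 cells per library) and reading the levels in the other. The mean over libraries then was 1325 CPM for Fabp4 against 1421, 5413 for Fabp5 against 5760, 23610 for Spp1 against 24960 and 4667 for Gpnmb against 4907.

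Apoc1, which the rule did not use, varied most. It stood at 18.6 and 2299 CPM with sham surgery, 523 and 1816 after mild, 3991 and 1545 after moderate and 3122 and 4309 after severe contusion. Sham 1 lay far below the rest and mild 1 below every other injured library, while the 2 severe libraries and moderate 1 were the highest. After thinning each cell to 1000 UMIs, Apoc1 was seen in 40.6% ± 20.8 (SD, n = 8) of members, in 9.53% ± 6.73 of Fabp4-negative C1q cells and in 2.77% ± 3.15 of cells without a Tyrobp UMI, and no cell fell short of that depth. Unthinned, 20% to 89.1% of members per library held an Apoc1 UMI. Apoe was abundant in members at 6004 and 91825 CPM with sham surgery, 34945 and 72198 after mild, 86663 and 68719 after moderate and 93304 and 104201 after severe contusion.

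Near its edges the rule divided a continuous range of cells. At the Fabp4 threshold 704 members held exactly 2 UMIs, and 1385 cells that met all else held 1. For the sum of Spp1, Fabp5 and Gpnmb, 76 members lay at 20 to 24 UMIs and 76 cells at 15 to 19. At the division limit 1019 members held 1 UMI of Mki67 or Top2a and 274 cells held 2, and at the Cxcl1 limit 231 members held 4 UMIs and 201 cells held 5. At the Tyrobp threshold 23 members held 3 UMIs and 40 cells held 2. The Fabp4 threshold therefore ran through a well-filled part of the range, and that on the sum through a thin one. At the Cxcl1 limit most of these cells came from mild and moderate, and in severe only 1 and 8 members held 4 UMIs and 6 and 12 cells held 5, beside 399 and 1271 cells above the limit.

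As a point of comparison within the same libraries, 5954 cells were taken that held no Fabp4 UMI, at least 5 UMIs of the complement genes C1qa, C1qb and C1qc, and that met the Tyrobp, division and Cxcl1 criteria (115 to 1709 per library). C1q is made by microglia and resident macrophages, and the C1q genes are fixed by this choice. Ratios are log2 of members over these cells with 10 CPM added to both, as medians over 8 libraries, and they describe 2 sets of cells chosen by counts, with no test. Of 5982 features with a mean of at least 10 CPM in members, 1992 (33.3%) had a ratio above 0, with a median of -0.13.

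Among features above 200 CPM, leaving out the genes of the rule, members were highest over the Fabp4-negative C1q cells for RGD1559482 (ratio 3.07), which RefSeq now names Igsf7 l1, and Rgcc (3.05), a regulator of the cell cycle induced by complement. Rgcc stood at 117 and 224 CPM with sham surgery, 634 and 375 after mild, 548 and 1509.8 after moderate and 1040.2 and 928 after severe contusion, against 12.1 to 159.8 CPM in the comparison cells, and among members only sham 1 lay within that range. Next came S100a11 (2.83), AABR07030791.1 (2.52), Mgst1 (2.48), a microsomal glutathione transferase, Pla2g7 (2.43), a phospholipase that cleaves oxidised phospholipids, and the protease inhibitor Slpi (2.36, higher in 7 of 8 libraries). Pla2g7 varied little, at 352 and 582 CPM with sham surgery, 613 and 553 after mild, 537 and 591 after moderate and 739 and 702 after severe contusion, against 79.4 to 157 CPM in the comparison cells. Apoc1 (2.31), Ifitm1 (2.27), Crip1 (2.21), Tnfsf13 (2.21), which encodes the cytokine APRIL, Lilrb4 (2.10), Prdx5 (2.07), Anxa5 (2.04) and the acid phosphatase Acp5 (2.03) were higher in 8 of 8 libraries.

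Members were lowest for Anxa3 (ratio -2.90), the matrix glycoprotein Sparc (-2.87) and the chemokine Ccl4 (-2.81). Outside the C1q genes, Basp1 had a ratio of -2.66. Ch25h, which makes 25-hydroxycholesterol, had a ratio of -2.61, and Cst3, which encodes the protease inhibitor cystatin C, -2.49. Cst3 stood in members at 19045 and 6631 CPM with sham surgery, 1010 and 1617 after mild, 1209 and 1095 after moderate and 973 and 1097 after severe contusion, against 4536 to 45838 CPM in the comparison cells. Both sham libraries were high for Cst3 in members, and the 6 injured ones lay between 973 and 1617 CPM.

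**Figure D2:**
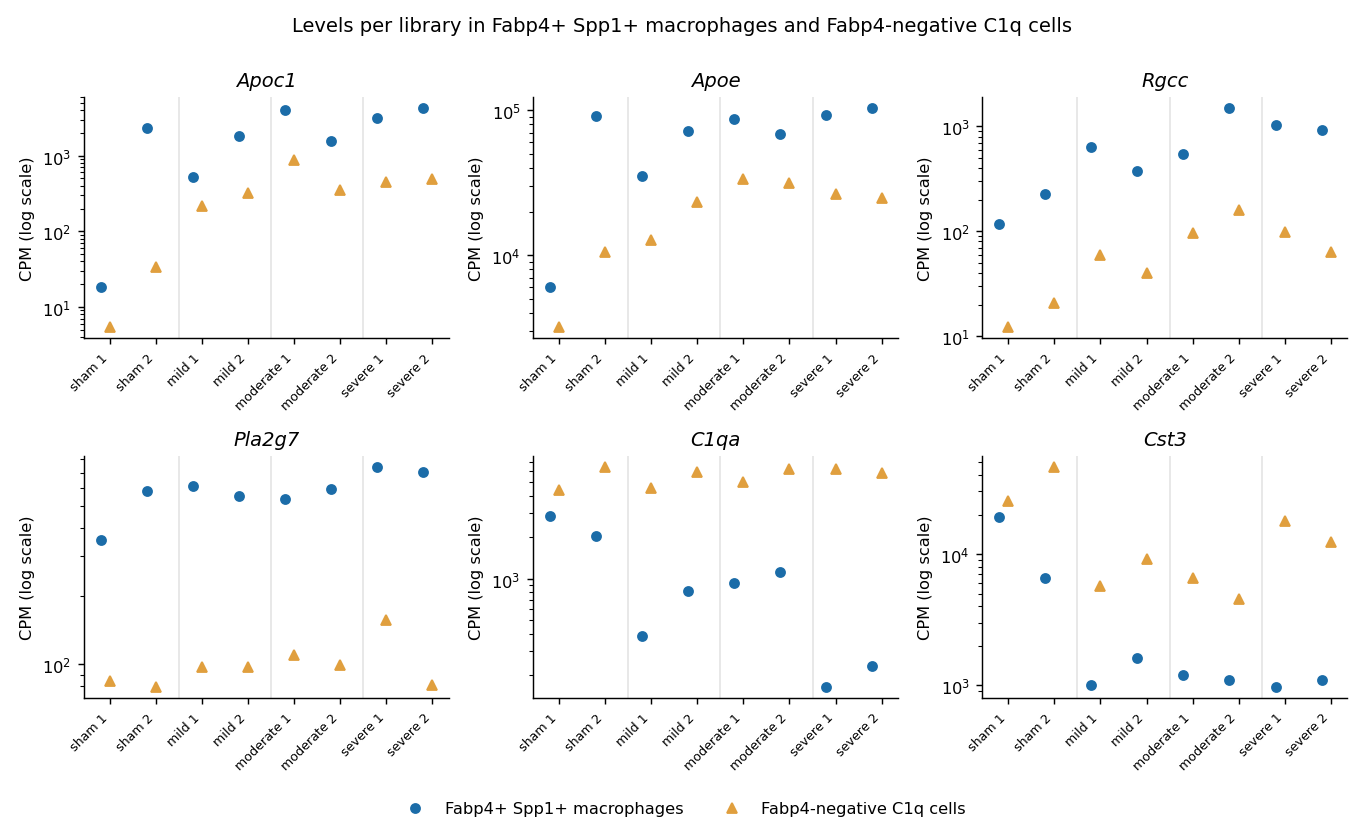
CPM on a log scale per library of 6 genes in members (circles) and Fabp4-negative C1q cells (triangles). Apoc1, Apoe, Rgcc and Pla2g7 were higher and C1qa and Cst3 lower in members of all 8 libraries, and C1qa is fixed in the comparison cells by the way they were chosen.

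Genes of lipid traffic were compared by role. For uptake, 6 of 7 features with at least 10 CPM lay above the comparison cells (median ratio 0.54), beside 33.3% of all features. Cd68, a lysosomal scavenger-type glycoprotein, had a ratio of 1.40 and stood at 553 and 1429.6 CPM with sham surgery, 1599 and 2008 after mild, 1538 and 1443 after moderate and 1007 and 1608 after severe contusion. Msr1, the class A scavenger receptor, had a ratio of 0.54, and its level was 619 CPM in sham 1 against 34.3 to 105 elsewhere. For droplets and triglyceride, 9 of 11 were higher (median 0.45). Plin2, which coats lipid droplets, stood at 186 and 187 CPM with sham surgery, 206 and 233 after mild, 249 and 792 after moderate and 390.2 and 335 after severe contusion, with a ratio of 1.21. Its highest library was moderate 2, where the comparison cells were also at 688 CPM. Soat1, which esterifies cholesterol for storage, had a ratio of 0.45.

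For efflux and lysosomal lipid export, 11 of 12 were higher (median 0.38), the exception being Ch25h. Apoe had a ratio of 1.54, the exporter Abca1 0.88, its partner Abcg1 0.60, the liver X receptor gene Nr1h3, a sensor of sterols, 1.28, and the acid lipase Lipa 0.44. Abca1 stood at 96.4 and 244 CPM with sham surgery, 128 and 202 after mild, 405 and 355 after moderate and 247 and 229 after severe contusion. For cholesterol synthesis, 0 of 11 were higher (median -0.53), among them Sqle (-0.46), squalene epoxidase. Summed, this list was 232 to 408 CPM in members. In the comparison cells it was 1357 CPM in sham 1, 923 and 956 in mild and 267 to 375 elsewhere. In moderate 2 the members were higher (313 against 267 CPM). Sham 1 and mild were also where the comparison cells held most oligodendrocyte transcripts, and the part of these in the ratios was not tested. For fatty acid oxidation and PPAR genes, 2 of 6 were higher (median -0.05), and Pparg, the nuclear receptor known to drive Fabp4, was listed at 0 to 1.8 CPM in members. These levels of Pparg lie near the limit of detection. Lists and members were chosen on the same libraries, so the counts describe and support nothing further.

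**Figure D3:**
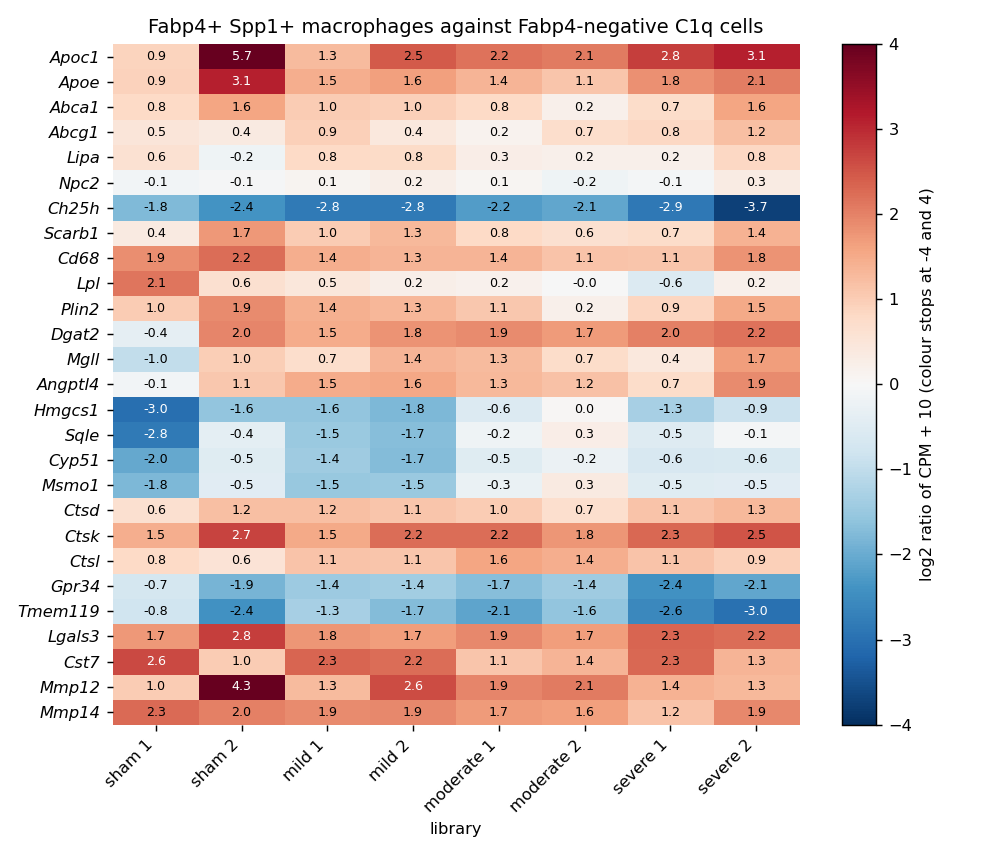
Log2 ratio of members over Fabp4-negative C1q cells (CPM + 10 in both), with 1 row per gene, 1 column per library and the ratio printed in each cell (red above 0, blue below). Apoe, Abca1, Abcg1, Cd68 and Plin2 were above 0 in all 8 libraries and Ch25h, Cyp51, Gpr34 and Tmem119 below 0 in all 8, while Sqle and Msmo1 were below 0 except in moderate 2.

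Lysosomal genes were higher in members for 16 of 22 (median ratio 0.31), with the proteases Ctsd at 1.13 and Ctsb at 0.92. Ctsd stood at 1827 and 7425 CPM with sham surgery, 7299.9 and 11570.4 after mild, 8131 and 5991 after moderate and 4519 and 6024 after severe contusion. Of genes that phagocytes raise through the lipid receptor Trem2, 14 of 18 were higher (median 0.47). The list shares Spp1, Gpnmb, Fabp5 and Apoe with the choice of the cells or with other lists. Trem2 itself differed little (474 to 1331 CPM in members, ratio 0.18), and Cd9, a tetraspanin of the same list, was lower (-0.74). Lgals3, encoding galectin-3, had a ratio of 1.85 and stood at 2455 and 2058 CPM with sham surgery, 4685 and 5414 after mild, 5139 and 6339.6 after moderate and 3185 and 4688 after severe contusion. Of iron and heme genes, 9 of 10 were higher (median 0.44), with the heme oxygenase Hmox1 at 0.84 and the ferritin subunits Ftl1 at 0.88 and Fth1 at 0.61. Of matrix and proteolysis genes, 11 of 14 were higher (median 0.91), with the metalloproteases Mmp14 at 1.90 and Mmp12 at 1.67 and fibronectin, Fn1, at 1.996.

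Cytokine and growth factor genes were mixed, with 10 of 19 higher (median ratio 0.01). Vegfa, the vascular growth factor, had a ratio of 1.05, Il1b -2.20 and Ccl3 -2.07, where both kinds of cells were held under the Cxcl1 limit. Of genes used to score polarization, 3 of 7 were higher (median -0.03). Tnf and Il10 were at 0 to 3.59 and 0 to 1.76 CPM in members. Of efferocytosis genes, which serve the uptake of dying cells, 1 of 11 were higher (median -0.97), with the receptor Axl at -1.71, Mertk at -0.62 and the bridging ligand Pros1 at -1.36. This list holds the C1q genes that the comparison cells were required to carry.

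In every library, sham included, members held more of the monocyte list than the Fabp4-negative C1q cells. In severe 2 the 2 kinds were nearly level (1526 against 1442 CPM). They held less of the homeostatic microglial list than microglia-type cells. The latter were chosen by microglial markers, so that difference follows in part from the choice. Homeostatic microglial genes were higher in 0 of 6 (median ratio -1.71), with P2ry12 at 1.23 to 18 CPM, Tmem119 at 1.84 to 34.1 and Cx3cr1 at 11.3 to 110. Their summed level was 1012 and 1047 CPM with sham surgery, 356 and 395 after mild, 451 and 391 after moderate and 462 and 215 after severe contusion. In cells with at least 3 UMIs of microglial markers that sum ran from 1074 to 4529 CPM, and its low end was sham 1, whose members were at 1012 CPM. Monocyte genes were higher in 5 of 5 (median 1.32), and the summed list was 6582 and 593 CPM with sham surgery, 3804 and 1797 after mild, 2211 and 2309 after moderate and 2872 and 1526 after severe contusion. In the Fabp4-negative C1q cells it was 888 and 211 CPM in sham, 1172 and 531 in mild, 736 and 578 in moderate and 1044 and 1442 in severe. Of the 11 genes of this list 7 were in the files. Cells with at least 10 UMIs of Fn1 and Vcan, chosen as monocyte-like, had 7554 to 14402 CPM of the monocyte list over the 7 libraries with enough such cells. Border macrophage genes were higher in 5 of 7 (median 0.23), while Cd163, a defining one, stood at 0 to 2.68 CPM in members outside sham 1 and at 33.8 in sham 1. Dendritic genes were higher in 0 of 6 (median -0.21). T and NK cell genes summed to 8.04 to 35.5 CPM, B cell genes to 0.22 to 7.03, and Ms4a1, Pax5, Gzmb and Mpo had no UMI in any member.

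The naming genes were also read in 2 other kinds of cells. In the microglia-type cells Spp1 was 2974 ± 1631 CPM (SD, n = 8), Fabp5 was 387 ± 139 CPM (SD, n = 8), Gpnmb 999.7 ± 666 CPM (SD, n = 8) and Apoc1 105 ± 98.6 CPM (SD, n = 8). In the monocyte-like cells Spp1 was 8198 ± 5933 CPM (SD, n = 7), Fabp5 was 1861 ± 1044 CPM (SD, n = 7), Gpnmb 1791 ± 1229 CPM (SD, n = 7) and Apoc1 411 ± 291 CPM (SD, n = 7). Members had 2203 ± 1543 CPM (SD, n = 8) of Apoc1. Both other kinds had been limited to fewer than 2 Fabp4 UMIs per cell, so these values are set side by side without a test. The monocyte-like cells lay between for Pla2g7 (117 to 378 CPM) and reached the level of members for Rgcc in some libraries (55 to 1444 CPM).

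Members were not alike among themselves. In the 6 injured libraries 17.1% to 53.3% of members held at least 5 C1q UMIs, against 60.0% and 63.9% in sham. At least 10 UMIs of Fn1 and Vcan were held by 46.7% and 0% of members in sham, 50.5% and 16.9% in mild, 17.9% and 30.8% in moderate and 34.8% and 7.0% in severe, so the 2 libraries of a group differed as much as the groups did. No Apoc1 UMI was seen in 80.0% and 33.3% of members in sham, 42.6% and 18.0% in mild, 10.9% and 20.7% in moderate and 18.4% and 13% in severe. Across the cells of a library, Spearman's rho of Fabp5 with Gpnmb, as shares of each cell's UMIs, was 0.26 to 0.59 and that of Apoe with Apoc1 0.12 to 0.44. Fabp4 with Apoc1 gave -0.06 to 0.08. These points share their library, and cells with many UMIs of one gene have fewer left for others.

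Members of different groups were then compared with edgeR's quasi-likelihood test on UMIs summed per library (all 8 libraries in 1 fit, Benjamini-Hochberg adjustment over 11498 features, called at an adjusted p under 0.05). Severe against mild gave 267 calls (2.32% of features), 109 higher (0.948%) and 158 lower (1.37%), and severe against moderate 184 (1.6%), 68 higher (0.591%) and 116 lower (1.01%). Severe against sham gave 107 calls (0.931%), 31 higher (0.27%) and 76 lower (0.661%), and mild against sham 82 (0.713%), 22 higher (0.191%) and 60 lower (0.522%). Moderate against mild gave 6 (0.0522%), 5 higher (0.0435%) and 1 lower, and moderate against sham 1 (0.0087%). With scaling by library size alone the splits became 66 higher and 242 lower for severe against mild, 52 and 285 for severe against moderate and 16 and 145 for severe against sham, and the median log2 fold change of all features moved from -0.05 to -0.39, from -0.10 to -0.45 and from 0.04 to -0.33. Comparisons that share a group share its libraries. Without mild 1 or mild 2 severe against mild gave 34 (18 higher) and 38 calls (17 higher), and without severe 1 or severe 2 it gave 40 (27 higher) and 59 (42 higher). Without severe 1 or severe 2, severe against moderate gave 45 (26 higher) and 50 calls (35 higher), so without either severe library more of the calls were higher than lower in severe in both comparisons. Against sham, leaving out sham 2 gave 534 calls for mild (284 higher) and 594 for severe (339 higher), again with more higher than lower, and leaving out sham 1 gave 27 (13 higher) and 24 (6 higher).

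Fabp4, Fabp5, Gpnmb and Spp1 chose the cells, so no test is given for them. For severe against mild, Apoc1 and Apoe had log2 fold changes with wide errors (SE), at 1.98 ± 1.43 and 1.20 ± 0.99, which leave room for large differences either way. Plin2 had 1.04 ± 0.44 and Abca1 0.84 ± 0.48.

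Among the features with the largest fold changes between severe and other injured members were 2 ribosomal protein genes and several features without a gene name. Rps19, a protein of the small ribosomal subunit, stood at 157 and 151 CPM with sham surgery, 33.6 and 36.4 after mild, 65.5 and 55 after moderate and 1047 and 904 after severe contusion. Both severe libraries lay far above the other 6, and the mild were lowest. In edgeR it was higher in severe than in mild by a log2 fold change of 5.12 ± 0.33 (SE), adjusted p = 0.000346, and than in moderate by a log2 fold change of 4.35 ± 0.31 (SE), adjusted p = 0.00077. Rps6 rose in the same way (4.26 ± 0.32 against mild, adjusted p = 0.000628), as did LOC108349682 (5.001 ± 0.45, 0.00126) and LOC108348142 (4.14 ± 0.32, 0.000692). Of the 2 features that carry the symbol LOC108351137, ENSRNOG00000030963 rose against moderate (4.44 ± 0.42, adjusted p = 0.00182) and ENSRNOG00000018630 did not pass (-0.37 ± 0.36, adjusted p = 0.55). AABR07025010.1 fell by 4.72 ± 0.41 on the log2 scale against mild and AABR07002792.2 fell by 3.97 ± 0.37 (adjusted p = 0.00117 and 0.00126), from 1.76 to 179 and 3.74 to 106 CPM over the 8 libraries. Each of the 6 calls against mild named so far held when any 1 library was left out. Sumo4, named for a ubiquitin-like modifier, stood at 156 and 216 CPM with sham surgery, 77.2 and 43.4 after mild, 50.3 and 51.0 after moderate and 5.21 and 2.42 after severe contusion, and fell by 3.69 ± 0.45 on the log2 scale against mild (adjusted p = 0.00594, lost without severe 2). Mt-atp8, a mitochondrial gene of the ATP synthase, stood at 62.6 and 203 CPM with sham surgery, 14.3 and 21.7 after mild, 58.1 and 235 after moderate and 502 and 185 after severe contusion. Its log2 fold change against mild was 4.53 ± 0.84 (adjusted p = 0.0295, edgeR), a call lost without either mild or either severe library, and severe 2 lay below sham 2 and moderate 2.

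These features differed likewise in other cells of the same libraries. Rps19 in Fabp4-negative C1q cells stood at 162 and 182 CPM with sham surgery, 38 and 36.4 after mild, 79 and 69.6 after moderate and 1618 and 1364 after severe contusion, and in cells without a Tyrobp UMI at 109 and 156 CPM with sham surgery, 35.1 and 35.6 after mild, 94.8 and 78.4 after moderate and 1778 and 1019 after severe contusion. AABR07025010.1 in cells without a Tyrobp UMI was 5.66 and 2.25 CPM in severe and 91.1 to 199 elsewhere. The differences were thus present in all 3 kinds of cells of the severe libraries, and whether the counting of those libraries differed was not tested. All 90 ribosomal protein genes together took 10.9% and 11.2% of member UMIs in mild, 13.2% and 10.4% in moderate and 10.8% and 13.1% in severe, after 16.5% and 13.5% in sham, and the severe libraries overlapped with mild and moderate there. In Fabp4-negative C1q cells they took 16.1% and 17.3% in sham, 13.03% and 13.6% in mild, 18.2% and 13.1% in moderate and 16.6% and 19.1% in severe, and in cells without a Tyrobp UMI 11.6% and 12.2% in sham, 11.2% and 10.3% in mild, 17.3% and 13.5% in moderate and 18.9% and 14.4% in severe. In those 2 kinds of cells the summed class was higher in both severe than in both mild libraries. RefSeq names 15 pseudogenes and 5 further genes after Rps19 and 11 pseudogenes after Rps6, and counts of such families are uncertain where reads can fall to a copy. No copy is named after Fabp4, Spp1, Gpnmb, Apoc1 or Apoe, and 2 pseudogenes are named after Fabp5.

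**Figure D4:**
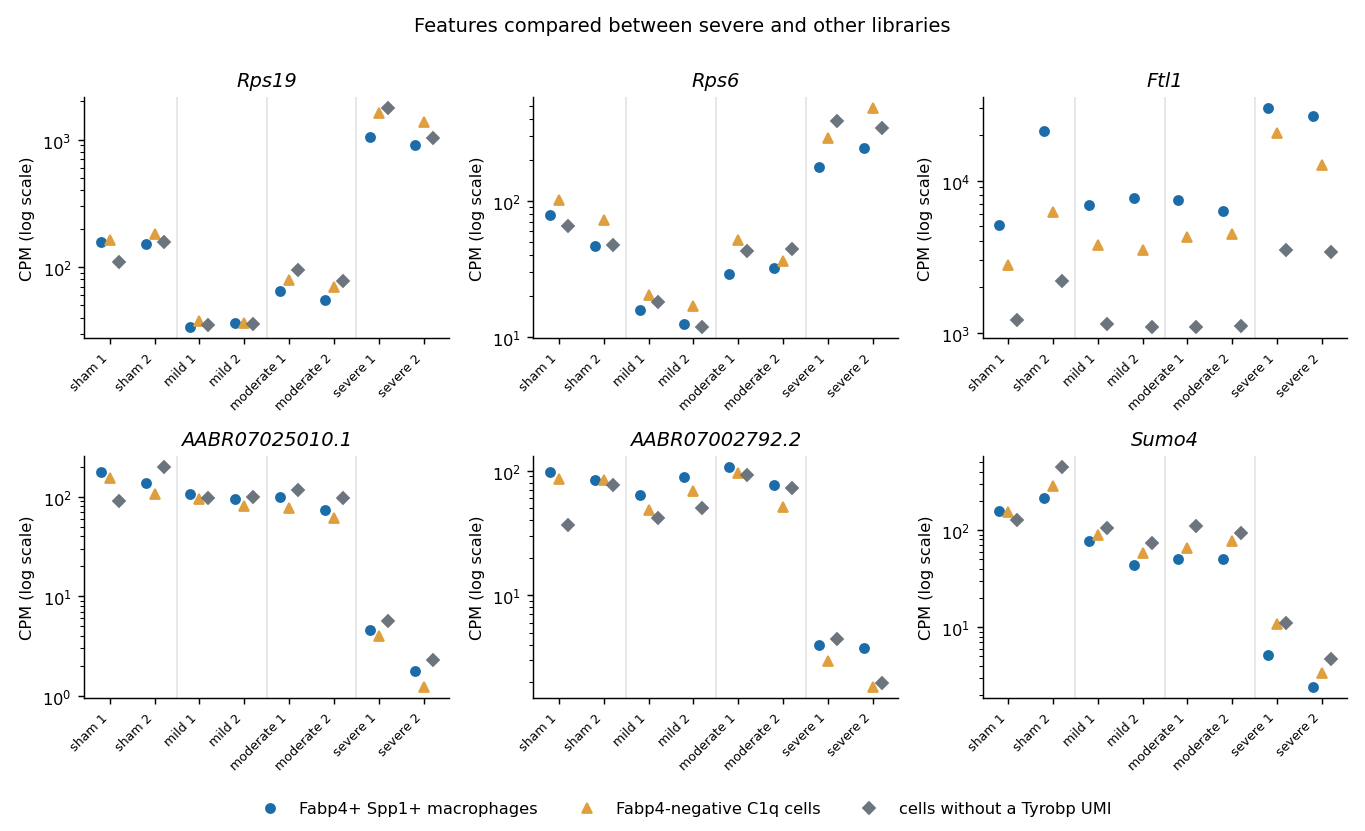
CPM on a log scale of 6 features per library, in members, Fabp4-negative C1q cells and cells without a Tyrobp UMI of each library. The severe libraries lie above the other 6 for Rps19, Rps6 and Ftl1 and below them for AABR07025010.1, AABR07002792.2 and Sumo4 in all 3 kinds of cells, with sham 2 near them for Ftl1 in members.

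LOC100360791 and RGD1562667 led the comparison of moderate with mild. LOC100360791 stood in members at 32.1 and 66.5 CPM with sham surgery, 0.598 and 1.12 after mild, 143 and 373 after moderate and 0.919 and 7.48 after severe contusion, and was higher in moderate by a log2 fold change of 8.15 ± 0.92 (SE), adjusted p = 0.0273 (edgeR). RGD1562667 stood at 69.4 and 44.9 CPM with sham surgery, 3.21 and 3.25 after mild, 224 and 95.7 after moderate and 13.5 and 2.2 after severe contusion, with a log2 fold change 5.63 ± 0.70 (SE), adjusted p = 0.0365. Both calls were lost without any 1 of the 4 mild and moderate libraries. LOC100360791 was as high in Fabp4-negative C1q cells (0.734 to 382 CPM), while RGD1562667 was at 0.367 to 30 CPM there.

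Named genes of macrophage function differed in few cases between injured groups. Of the 25 cytokine and growth factor genes tested, 1 was higher and none lower in severe than in mild, beside 0.948% and 1.37% of all features, with a median log2 fold change of 0.52 beside -0.05 for all features. That gene was Vegfa, which stood at 28.8 and 18 CPM with sham surgery, 44.2 and 26.5 after mild, 47.2 and 65.8 after moderate and 239 and 65.8 after severe contusion. Severe 1 was far above the rest and severe 2 stood level with moderate 2, and edgeR gave a log2 fold change 2.40 ± 0.50 (SE), adjusted p = 0.0441 against mild. The call was lost without any 1 of mild 1, mild 2, moderate 1, moderate 2 and severe 1, and the log2 fold change fell to as little as 1.30 in these fits. Scaling by library size, fitting only the 2 groups and a rule with stricter thresholds also ended the Vegfa call. Ccl9, a chemokine of the CC type, stood at 3.38 and 3.59 CPM with sham surgery, 1.85 and 2.52 after mild, 26.9 and 31.1 after moderate and 2.14 and 5.5 after severe contusion. Only the moderate libraries reached 20 CPM, and edgeR gave a log2 fold change 3.69 ± 0.40 (SE), adjusted p = 0.0273 against mild and -2.49 ± 0.42 (adjusted p = 0.0265) for severe against moderate. Without any 1 of the 4 mild and moderate libraries both were lost, as they were without the Cxcl1 limit. The call for severe against moderate was also lost without severe 1 and with only the 2 groups fitted. In Fabp4-negative C1q cells Ccl9 was 3.99 and 8.65 CPM with sham surgery, 5.47 and 6.05 after mild, 47 and 121 after moderate and 9.83 and 9.76 after severe contusion.

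Of 13 genes of cholesterol efflux and lysosomal export tested, 1 fell in severe against moderate, beside 1.01% of all features, against a median of 0.37 for the list and -0.10 for all features. It was Ch25h, at 156 and 136 CPM with sham surgery, 34.3 and 23.1 after mild, 68.6 and 108 after moderate and 20.2 and 9.46 after severe contusion, with both severe libraries below the other 6. Against moderate edgeR gave a log2 fold change -2.25 ± 0.36 (SE), adjusted p = 0.0209, a call lost without moderate 2 or severe 2. It was also lower in mild and severe than in sham (-2.30 ± 0.36 and -2.96 ± 0.38, adjusted p = 0.0344 and 0.0147), with 1 of 13 genes lower in each, beside 0.522% and 0.661% of all features. The mild call was lost without sham 1, either mild or either moderate library, and the severe call without either severe library. No tested gene of lipid uptake (9), lipid droplets (14), cholesterol synthesis (15), fatty acid oxidation and PPAR (12), lysosome (22), iron (12) or matrix (18) was called between severe and mild, where 2.32% of all features were, a share that would give few calls in lists of this size. Ftl1, the ferritin light chain, stood at 5124 and 21153 CPM with sham surgery, 6958 and 7719.8 after mild, 7434 and 6352 after moderate and 30121 and 26467 after severe contusion. Both severe libraries and sham 2 lay far above the other 5, with a log2 fold change 2.27 ± 0.65 (SE), adjusted p = 0.112 (edgeR) against mild. RefSeq names 14 pseudogenes and 7 further genes after Ftl1, and it was also highest in severe in cells without a Tyrobp UMI (3511 and 3381 CPM, against 1084 to 2173).

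Transcripts of oligodendrocytes, the myelin-forming cells, were present in members and highest in mild. The 9 genes of the list summed to 543 and 228 CPM with sham surgery, 1832 and 1411 after mild, 574 and 888 after moderate and 323 and 214 after severe contusion. In severe against mild 3 of 9 were lower and none higher, beside 1.37% and 0.948% of all features, with a median log2 fold change of -2.23 beside -0.05 for all features. Mbp, encoding myelin basic protein, stood at 94.7 and 181 CPM with sham surgery, 365 and 260.4 after mild, 127 and 199 after moderate and 53 and 52.6 after severe contusion, with a log2 fold change -2.23 ± 0.41 (SE), adjusted p = 0.0295. Cnp had -1.81 ± 0.28 (0.0161) and Mag -3.30 ± 0.70 (0.0479), all by edgeR, and each call was lost without either mild or either severe library. The Mag call was also lost without either moderate library, with scaling by library size, with a mitochondrial limit of 20% and without the Cxcl1 limit. Outside the list, Tubb4a, a tubulin of myelinating and nerve cells, fell by 3.86 ± 0.47 on the log2 scale (adjusted p = 0.00605) and S100b, a glial calcium-binding protein, fell by 4.06 ± 0.61 (0.0136). The Tubb4a call was lost without either severe library and the S100b call without either mild or either severe library. Of 5 genes of oligodendrocyte precursors, Olig2 was called lower (-5.06 ± 1.03, adjusted p = 0.0479, 5.27 and 6.25 CPM in mild against 0.306 and 0 in severe), a call lost without any 1 of 5 libraries. The Olig2 call was also lost with doublets removed and without the Cxcl1 limit. Qdpr, a pteridine reductase, stood at 40.6 and 25.1 CPM with sham surgery, 143 and 103 after mild, 46.7 and 47.9 after moderate and 30.02 and 28.6 after severe contusion, and rose in mild against sham (log2 fold change 1.96 ± 0.28 (SE), adjusted p = 0.0311, edgeR), as did Cnp and Tubb4a (2.54 ± 0.30 and 4.34 ± 0.56, adjusted p = 0.0311 each). Each of these 3 calls was lost without either mild or either moderate library, and that of Qdpr also without sham 1 or severe 2. Removing doublets ended the mild call of Tubb4a, as did leaving out the Cxcl1 limit, while those of Cnp and Qdpr held under both. In cells without a Tyrobp UMI the oligodendrocyte list summed to 31602 and 15302 CPM with sham surgery, 24342 and 26242 after mild, 6910.2 and 5255 after moderate and 4769 and 8599.9 after severe contusion, and in Fabp4-negative C1q cells to 7942 and 681 CPM with sham surgery, 7001 and 7788 after mild, 1449 and 1800.3 after moderate and 1502 and 1435 after severe contusion. Both are above the members' sum in every library, and both severe and moderate were below mild there as well. Of 5 erythrocyte genes tested, Hba-a3, an alpha globin, was called higher in severe than in mild (adjusted p = 0.0433, edgeR), with no UMI in mild members and 0.306 and 38.9 CPM in severe, so severe 2 alone was high. The Hba-a3 call was lost without either mild or either moderate library. The part of engulfed myelin, free RNA or attached cells in the members' values was not tested.

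**Figure D5:**
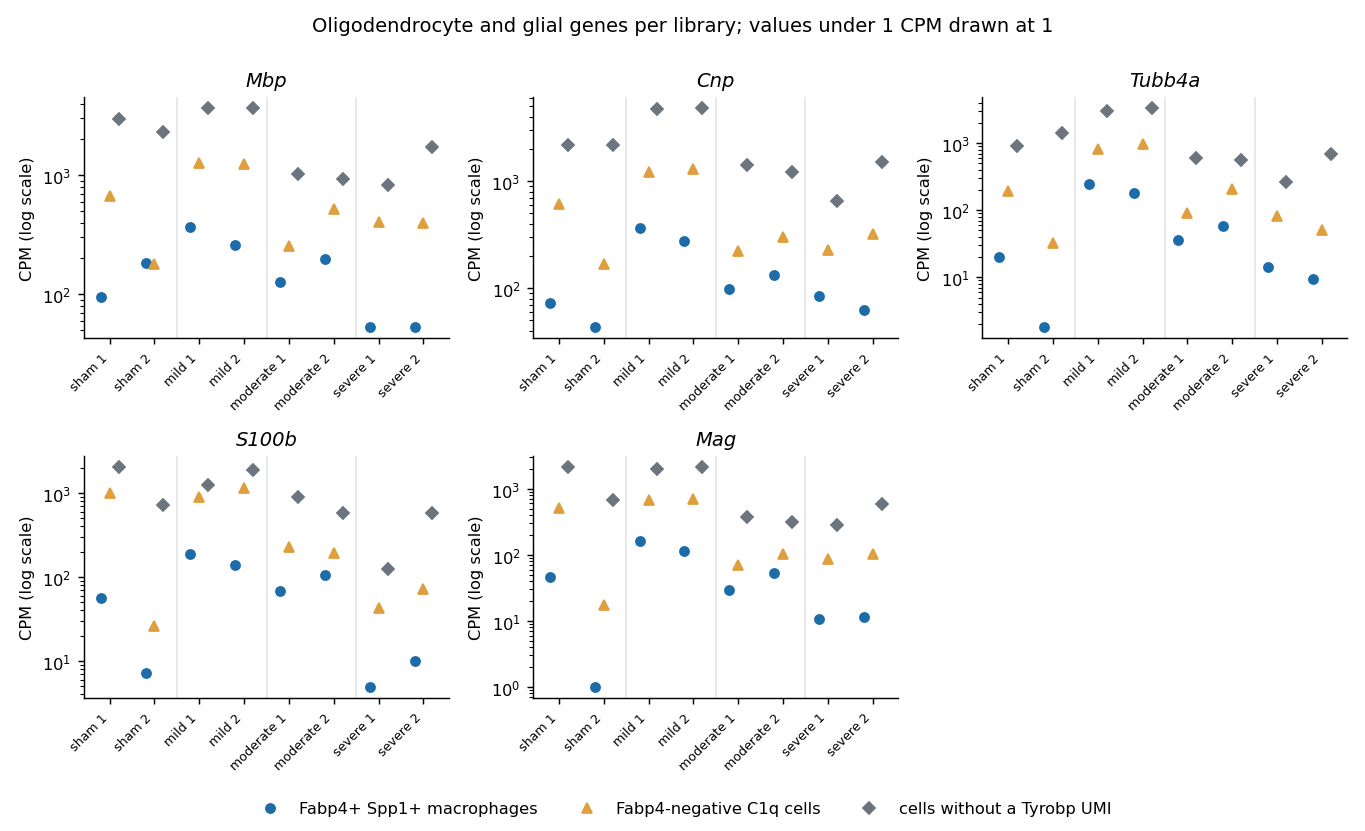
CPM on a log scale of 5 oligodendrocyte and glial genes per library in members, Fabp4-negative C1q cells and cells without a Tyrobp UMI. Member values lie below those of cells without a Tyrobp UMI in every library, and are highest in the mild libraries for all 5 genes.

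Comparisons with sham rest on 66 sham cells, and the 2 sham libraries differed from each other. Id3, an inhibitor of basic helix-loop-helix factors, stood at 6.77 and 7.18 CPM with sham surgery, 108 and 47.8 after mild, 54.6 and 38 after moderate and 193 and 99.2 after severe contusion. All injured libraries lay above both sham ones, and edgeR gave a log2 fold change 4.75 ± 0.60 (SE), adjusted p = 0.0143 for severe, lost without sham 1 or severe 1, and 3.51 ± 0.61 (adjusted p = 0.0436) for mild, lost without any 1 library. Angptl4, a lipase inhibitor induced by fatty acids, stood at 20.3 and 21.6 CPM with sham surgery, 91.1 and 135 after mild, 113 and 124 after moderate and 104 and 200 after severe contusion, with a log2 fold change 3.27 ± 0.48 (SE), adjusted p = 0.0203 for severe, lost without sham 1 or severe 2. Gadd45b, a stress-induced gene, stood at 74.4 and 64.7 CPM with sham surgery, 139.8 and 88.8 after mild, 187 and 523 after moderate and 419.9 and 363 after severe contusion, with a log2 fold change 2.87 ± 0.46 (SE), adjusted p = 0.0282 for severe (edgeR), lost without sham 1 or either severe library. Moderate 2 was its highest library. Lpl, the secreted lipase, stood at 129 and 44.9 CPM with sham surgery, 32.1 and 40.1 after mild, 29.8 and 18.4 after moderate and 9.5 and 10.8 after severe contusion, highest in sham 1 and lowest in the severe libraries (log2 fold change -2.65 ± 0.46 (SE), adjusted p = 0.0358, edgeR), and the call was lost without any 1 of 5 libraries, sham 1 among them. Cd8a, which rat macrophages also carry, stood at 107 and 133 CPM with sham surgery, 473 and 423 after mild, 497 and 509 after moderate and 796 and 564 after severe contusion, and rose in severe (log2 fold change 2.85 ± 0.33 (SE), adjusted p = 0.0085, edgeR) and mild (1.93 ± 0.32, adjusted p = 0.0382), the latter lost without any 1 of 7 libraries and with pairing by replicate number.

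A few genes of resident cells were higher in sham members. Of 11 homeostatic microglial genes tested, 2 (Tmem119 and the fructose carrier Slc2a5) were lower in both mild and severe than in sham (0.522% and 0.661% of all features were lower), with list medians of -2.21 and -2.13 beside 0.11 and 0.04 for all features. All 4 calls were lost without sham 1, and each was lost without either library of the injured group. Tmem119 stood at 33.8 and 34.1 CPM with sham surgery, 4.02 and 4.41 after mild, 11.3 and 7.21 after moderate and 1.84 and 3.74 after severe contusion, so both sham libraries lay above all others. Of 14 efferocytosis genes, Axl and Pros1 were lower in mild and C1qa, C1qb, C1qc and Pros1 lower in severe. The mild calls were lost in 7 of 8 fits that left out 1 library for Axl and in 6 of 8 for Pros1, and the severe calls without sham 1 or either severe library. Without the Cxcl1 limit the severe calls of C1qa, C1qb and C1qc and the mild call of Axl were lost as well. Removing doublets ended both calls of Pros1. Pairing by replicate number also ended the mild call of Pros1. C1qa in members stood at 2857 and 2049 CPM with sham surgery, 384 and 819 after mild, 935 and 1111 after moderate and 164 and 233 after severe contusion, and had a log2 fold change -3.22 ± 0.45 (SE), adjusted p = 0.0203 in severe (edgeR). Fcgr3a, an Fc receptor for antibody-coated targets, stood at 929 and 275 CPM with sham surgery, 74.8 and 75.3 after mild, 119 and 119 after moderate and 17.8 and 40.3 after severe contusion (log2 fold change -3.87 ± 0.56 (SE), adjusted p = 0.0203, edgeR). For both, sham and severe did not overlap, and both calls were lost without sham 1, severe 1 or severe 2. Cp, the ferroxidase ceruloplasmin, stood at 117 and 41.3 CPM in sham and 9.02 to 22.6 in the injured libraries (-2.77 ± 0.37 in mild and -2.46 ± 0.38 in severe, adjusted p = 0.0311 and 0.0252). Flt1, a receptor for Vegfa and an endothelial gene, stood at 35.5 and 12.6 CPM in sham and 0.306 to 2.197 elsewhere (-4.45 ± 0.71 in mild and -4.33 ± 0.82 in severe, adjusted p = 0.0344 and 0.0497). Cxcl16, a chemokine and scavenger receptor, stood at 340.03 and 117 CPM in sham and 30.06 to 65.4 elsewhere (-2.37 ± 0.43 in mild, adjusted p = 0.0477). Sham 1 was the highest library for all 3, and each of these calls by edgeR was lost without sham 1 and without several other libraries (5 of 8 fits for both Cp calls, 6 and 7 for those of Flt1 and 7 for Cxcl16). At the same time 23.3% and 25.0% of sham members held at least 3 UMIs of microglial markers, against 0.633% to 4.23% in the injured libraries.

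Whether members changed differently from the Fabp4-negative C1q cells of the same libraries was tested with limma on the difference of log2(CPM + 5) between the 2 kinds of cells in each library, with Benjamini-Hochberg adjustment. Between injured groups no feature was called (0 of 11498, 0%), with 491 to 792 features at an unadjusted p under 0.05 in these 3 comparisons. Severe against sham gave 28 calls (0.244%), 3 higher (0.0261%) and 25 lower (0.217%), moderate against sham 1 (0.0087%) and mild against sham 0 (0%, 1040 at an unadjusted p under 0.05). Apoc1 was not among those calls in any comparison. Without sham 1 or sham 2, severe against mild gave 60 and 62 calls. With all libraries, the differences between severe and mild members described above were not shown to be particular to them.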

How the data were processed

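Spinal cord cells of 8 libraries (sham, mild, moderate and severe contusion, 2 each) were analysed from the deposited count matrices, which hold whole UMI counts per gene and cell. Per the labels the authors made them with Cell Ranger on Rnor_6.0. The matrix headers give version 5.0.1 and the supplementary methods 6.0.1. The members and gene lists were chosen with earlier results of these data known. The lists (27, with 311 of 324 entries in the files) therefore describe and support nothing. Genes were named by a fixed rule: in each comparison, up to 5 called features in each direction with the largest fold change, a mean of at least 50 CPM and groups that did not overlap, plus called genes of the lists other than those of the cell rule. Not every such feature is printed.

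Counts were summed per library over members, and libraries with at least 20 cells entered. edgeR 4.0.16 fitted all 4 groups together (TMM scaling, filterByExpr, quasi-likelihood test). The SE given with its log2 fold changes was derived, as the absolute log2 fold change divided by the square root of the test's F value. The contrast with Fabp4-negative C1q cells used limma 3.58.1 on log2(CPM + 5) per library. Both were run on simulated data. There edgeR, for severe against mild, missed most changes of a log2 fold change of 1 and many of 2, and it made some false calls. Adjusted p-values are Benjamini-Hochberg over all features tested, called under 0.05. Shares used exact permutation tests. Of the deposited cells, 4889 failed the mitochondrial limit and 7500 the UMI minimum. Doublets were scored with Scrublet and kept, and removed in an alternative. Matrices were used as deposited, with no correction for free RNA. Alternatives were DESeq2 1.42.0, other scaling, filters, rules and denominators, pairing by replicate number and leaving out each library. Cd36, Ccr2, Nos2 and Chil3 were not analysed here, and some genes that entered the fits and lists are not reported here. R 4.3.3, Python 3.11.15 and scanpy 1.11.5 were used.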

Additional observations from a re-analysis of the deposited data

Results flagged for a closer look

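Severe against sham members differed from the same contrast in Fabp4-negative C1q cells for 28 features, by limma on the log2 difference between both kinds of cells in each library with Benjamini-Hochberg adjustment. The difference of contrasts was -3.78 for C1qa, -3.68 for C1qc and -3.59 for C1qb (adjusted p = 0.012 each). The comparison cells had to carry at least 5 C1q UMIs, so their C1q level was bounded from below by the way they were chosen, and that of members was not. Without either moderate or either severe library the 3 calls were lost. The chemokine Ccl4 had -3.17 (adjusted p = 0.012), lost likewise and also without the Cxcl1 limit. Fcgr3a had -3.77 (adjusted p = 0.0264) and Lyve1, a hyaluronan receptor of border macrophages, -3.34 (adjusted p = 0.0322), both lost in 6 of 8 fits that left out 1 library. With a pseudocount of 20 CPM both were lost as well. Pairing by replicate number also ended the Fcgr3a call, and leaving out the Cxcl1 limit that of Lyve1. In members Lyve1 stood at 345 and 12.6 CPM in sham and 11.03 and 4.62 in severe, with sham 1 far above the rest. The Lyve1 call on the difference of contrasts nevertheless held without sham 1 and without sham 2. In the comparison cells it stood at 186 and 19.6 CPM in sham and 114 and 96.0 in severe.

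Moderate against sham gave 1 such feature, and the call was lost in 6 of 8 fits that left out 1 library.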

How the results depend on the processing

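The sham groups rest on 66 members, and calls across groups of 2 libraries moved widely with the method. Mean shares kept the order of sham below severe below mild below moderate under every alternative run, and severe came closest to mild without the Cxcl1 limit. The causes were not tested.

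Calls among members under other settings were as follows. DESeq2 gave 883 for mild, 293 for moderate and 718 for severe against sham, 323 for moderate against mild, 777 for severe against mild and 980 for severe against moderate. Scaling by library size gave 41 for mild and 161 for severe against sham and 337 for severe against moderate. No filter on low counts gave 137, 19 and 172 for mild, moderate and severe against sham and 19 for moderate against mild. The alternatives without the Cxcl1 limit, with Apoc1-holding members and with a narrower denominator were chosen after seeing the data. Without the Cxcl1 limit there were 31, 2 and 215 against sham, 621 for severe against mild and 373 for severe against moderate. Fitting only the 2 groups gave 3, 0 and 31 against sham, 35 for moderate against mild and 103 for severe against moderate. The stricter rule, which left 19 cells in sham 1 and so 1 sham library (its spread taken from the other groups), gave 0, 0 and 7 against sham, 15 for moderate against mild and 363 for severe against moderate. Members with Apoc1, of which sham 1 held 6 cells and was likewise left out, gave 2 for mild and 4 for severe against sham, 14 for moderate against mild and 463 for severe against moderate. At least 100 cells per library, which leaves out sham, gave 24 for moderate against mild, 446 for severe against mild and 424 for severe against moderate. Removing doublets gave 11 for moderate against sham, 10 for moderate against mild and 285 for severe against moderate, and a mitochondrial limit of 20% gave 4 for moderate against sham. Of the contrasts with Fabp4-negative C1q cells, moderate against sham gave 0 and severe against sham 17 without the Cxcl1 limit, 0 and 9 with a pseudocount of 20, and severe against sham 16 for features of at least 50 CPM.

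Replicate numbers were checked as pairs. Correlations of deviations between same-numbered libraries were -0.121 to 0.247 over 6 pairs of groups. They were of both signs, so the numbers were not shown to mark a shared origin. With the replicate block there were 79, 22 and 117 calls against sham, 11 for moderate against mild, 165 for severe against moderate and 253 for severe against mild. In the contrast with Fabp4-negative C1q cells it gave 0 and 17 for moderate and severe against sham. Among calls named above, the block ended those of Cd8a and Pros1 for mild against sham. It also ended that of Fcgr3a for severe against sham in the contrast with Fabp4-negative C1q cells.

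Leaving out 1 library at a time gave 0 to 534 calls for mild, 0 to 114 for moderate and 6 to 594 for severe against sham, 0 to 39 for moderate against mild, 42 to 439 for severe against moderate and 34 to 480 for severe against mild. For the contrast with Fabp4-negative C1q cells it gave 0 to 414, 0 to 869 and 0 to 1383 against sham, 0 to 0, 0 to 13 and 0 to 62 between injured groups. The injured minus sham share ran from 14.2 to 20.4 percentage points of Tyrobp cells and from 10.8 to 15.6 of all cells, and rho with drop height from 0.0918 to 0.606. Group means of Tyrobp cells ran from 0.494% to 1.5% in sham, 20.9% to 21.9% in mild, 23.8% to 34.5% in moderate and 3.73% to 5.82% in severe, and of all cells from 0.325% to 1.36%, 15.4% to 16.8%, 19.8% to 26.1% and 2.47% to 3.96%.

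The mild share of Tyrobp cells was 17.4% with the stricter rule, 26.8% with the looser, 28.7% without the Cxcl1 limit, 24.8% in cells thinned to 5000 UMIs and 23.3% of cells with Apoe, Spp1, Gpnmb or C1q. Moderate was 37.0% with the looser rule and 40.4% without the Cxcl1 limit, severe 23.97% without that limit, 8.46% thinned and 7.57% of the narrower cells, and sham 2.48% of the narrower cells. Of all cells, mild was 13.1% stricter, 20.2% looser, 21.6% without the Cxcl1 limit and 18.0% thinned, moderate 29.2% looser and 31.7% without the limit, and severe 16.1% without the limit and 5.38% thinned.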
